A study of Homo sapiens with 9 samples.

Results

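The matrix metalloproteinases (MMPs) and their tissue inhibitors (TIMPs) were examined in OVCAR3 cells, an established line derived from a high-grade serous ovarian carcinoma, in which *CTCFL* (BORIS), a germline paralog of the insulator protein CTCF, had been raised or lowered. The set was chosen by name and held 10 of the 60660 genes in the count matrix, of which 7 were MMPs (*MMP1*, *MMP2*, *MMP7*, *MMP9*, *MMP10*, *MMP14* and *MMP15*) and 3 were inhibitors (*TIMP1*, *TIMP2* and *TIMP3*). There were 9 libraries in 3 groups of 3 biological replicates, each replicate a pool of 3 technical replicates. Control cells carried a LacZ plasmid and CTCFL-OE cells a plasmid with the *CTCFL* open reading frame, both given as 2 µg in a transient transfection and collected after 48 h. CTCFL-KD cells came from separate knockdown experiments on the same line. All groups shared the OVCAR3 background with its own *CTCFL* expression. A control for the knockdown procedure was not analysed here, so in CTCFL-KD the knockdown and the separate experiment cannot be told apart, and a single cell line stands for the disease.

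MMPs are zinc-dependent endopeptidases that are made as inactive proenzymes and cut collagens, laminins, fibronectin and many pericellular proteins. They divide by role into collagenases, stromelysins, matrilysins, gelatinases and membrane-anchored enzymes, and the TIMPs block their active sites. In ovarian carcinoma they are known for their part in the opening of the peritoneal matrix, and many are switched on through AP-1 sites in their promoters.

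The libraries held between 14332622 and 24490080 counts, and 17794 genes, all 10 members among them, passed edgeR's filter on low counts. *CTCFL* had 6, 9 and 10 counts for Control, 36, 34 and 72 for CTCFL-OE and 0, 1 and 0 for CTCFL-KD, the order of groups that the labels imply. In edgeR's quasi-likelihood test the Benjamini-Hochberg adjusted p of *CTCFL* was 0.0287 for CTCFL-OE and 0.0162 for CTCFL-KD. All 12 epithelial markers examined, such as *EPCAM* and *PAX8*, had at least 10 counts in every library. Their summed level was between 6060 and 6171 CPM (counts scaled to a common library size) for Control, 5319 and 5685 for CTCFL-OE and 10430 and 18010 for CTCFL-KD. In CTCFL-KD the upper value was replicate 1 and the others reached 10930. There edgeR called 7 of the 12 higher (15.3% of all genes) and 1 lower (7.94% of all genes), or 6 and 1 without replicate 1. The lower one was *KRT7* (log2 fold change -1.12, edgeR adjusted p = 0.0164). Of 11 fibroblast markers, the sum was at most 45.2 CPM in any library, and 8 leukocyte markers summed to between 0.800 and 1.20 CPM for Control, 0.820 and 2.21 for CTCFL-OE and 2.08 and 3.51 for CTCFL-KD, at most 2.08 without replicate 1. Both leukocyte markers that passed edgeR's filter were called in CTCFL-KD, *CD14* higher (4, 2 and 2 counts for Control and 34, 22 and 25 for CTCFL-KD, edgeR adjusted p = 0.000571) and *CSF1R* lower (12, 21 and 11 counts and 0 in each, edgeR adjusted p = 0.00225), while the defining marker *PTPRC* had at most 8 counts in any library. Mitochondrial transcripts took between 6.16% and 6.52% of counts for Control, 7.40% and 14.9% for CTCFL-OE and 7.80% and 11.8% for CTCFL-KD. The part of these differences in the values of the members was not tested. Replicate 1 of CTCFL-KD stood apart from the other 8 libraries. It had the lowest scaling factor (0.775 by TMM), and its ratio to the other CTCFL-KD libraries fell with transcript length, from a median log2 ratio of 0.82 among the shortest transcripts to -0.66 among the longest. For CTCFL-KD values that are given below, the value without it is added where a call changed or the fold moved by over 1.5 times.

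The promoter sequences of 3 members are shown, picked by their values in these data. *MMP7* and *MMP10* lie in the same gene cluster and both fell in CTCFL-OE. *MMP14* rose there with an edgeR adjusted p of 0.0927, which stayed under 0.1 in 2 of the 9 fits that left out a library. Whether the motifs go with the direction of change was not tested. Each runs from 250 bases before to 50 bases after the start site, 5′ to 3′ on the gene's strand, as RefSeq gives it on GRCh38.p14. Capitals mark a match to the AP-1 letters TGANTCA in *MMP7* and *MMP10*, and to AGGGGGC, a core of the CTCF and CTCFL motif, read on the other strand as GCCCCCT, in *MMP14*.
MMP7 promoter, chr11:102530698-102530997, minus strand: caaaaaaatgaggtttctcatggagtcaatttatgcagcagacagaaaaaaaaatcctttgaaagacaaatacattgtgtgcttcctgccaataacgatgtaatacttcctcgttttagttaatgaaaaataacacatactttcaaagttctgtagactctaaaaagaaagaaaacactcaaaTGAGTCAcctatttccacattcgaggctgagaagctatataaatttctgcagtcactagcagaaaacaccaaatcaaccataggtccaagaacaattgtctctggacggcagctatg
MMP10 promoter, chr11:102780579-102780878, minus strand: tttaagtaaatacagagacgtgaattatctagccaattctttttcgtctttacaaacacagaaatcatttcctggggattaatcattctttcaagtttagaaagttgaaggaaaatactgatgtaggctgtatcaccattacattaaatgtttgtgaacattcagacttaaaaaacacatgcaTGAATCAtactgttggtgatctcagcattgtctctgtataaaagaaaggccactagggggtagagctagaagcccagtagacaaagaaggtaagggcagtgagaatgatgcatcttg
MMP14 promoter, chr14:22836335-22836634, plus strand: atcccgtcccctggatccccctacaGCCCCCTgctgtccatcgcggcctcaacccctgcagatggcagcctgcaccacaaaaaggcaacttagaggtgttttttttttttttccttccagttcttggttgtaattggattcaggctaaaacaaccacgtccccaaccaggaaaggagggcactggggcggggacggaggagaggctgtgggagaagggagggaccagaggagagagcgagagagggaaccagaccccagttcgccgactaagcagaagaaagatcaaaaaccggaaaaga
The AP-1 match began 67 bases before the start site in both *MMP7* (TGAGTCA) and *MMP10* (TGAATCA). Of 35116 promoters of 300 bases, 7.71% held TGANTCA on either strand and 14.4% held AGGGGGC. Entries were found for 6 of the members. *MMP14* and *MMP15* held 1 match each to AGGGGGC and *TIMP3* held 2, *TIMP1* held neither motif, and no member held both. *MMP1*, *MMP2*, *MMP9* and *TIMP2* had no entry. Only exact matches were counted. The printed *MMP10* promoter holds AGGGGGT, which differs from AGGGGGC in its last letter and so was not counted. A match is a run of letters and does not show that a factor was bound.

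Compared per transcript length, as TPM (counts divided by the length of the joined exons of GENCODE 44 and scaled to a common total), *TIMP2*, *TIMP3* and *MMP15* were the most abundant members in Control. The order of mean levels was *TIMP2* at 118.9 ± 3.55 TPM (SD, n = 3), *TIMP3* at 104 ± 3.21, *MMP15* at 89.9 ± 2.96, *MMP2* at 58.6 ± 1.84, *TIMP1* at 27.6 ± 1.08, *MMP7* at 27.1 ± 2.25, *MMP10* at 23.6 ± 1.72, *MMP1* at 6.31 ± 1.11, *MMP9* at 0.911 ± 0.235 and *MMP14* at 0.355 ± 0.0785. The only neighbours in this order whose libraries overlapped were *TIMP1* and *MMP7*. In CTCFL-OE, *MMP7* stood at 4.38 ± 0.692 TPM and *MMP10* at 3.19 ± 1.22, both far under *TIMP1* at 28.4 ± 10.6. In CTCFL-KD the highest mean was that of *MMP15*, 145 ± 2.33 TPM, although its libraries overlapped those of *TIMP2* at 138 ± 47.8, and *MMP7* was last at 0.273 ± 0.206. This top rank rests on replicate 1, where *TIMP2* was at 83.4 TPM, as *TIMP2* lay above *MMP15* in replicates 2 and 3. With the longest transcript as the length, mean *TIMP2* was 191.7 TPM and mean *MMP15* 123.5 in CTCFL-KD. In these bulk libraries, fewer cells that express a gene and less RNA per cell cannot be told apart.

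**Figure D1:**
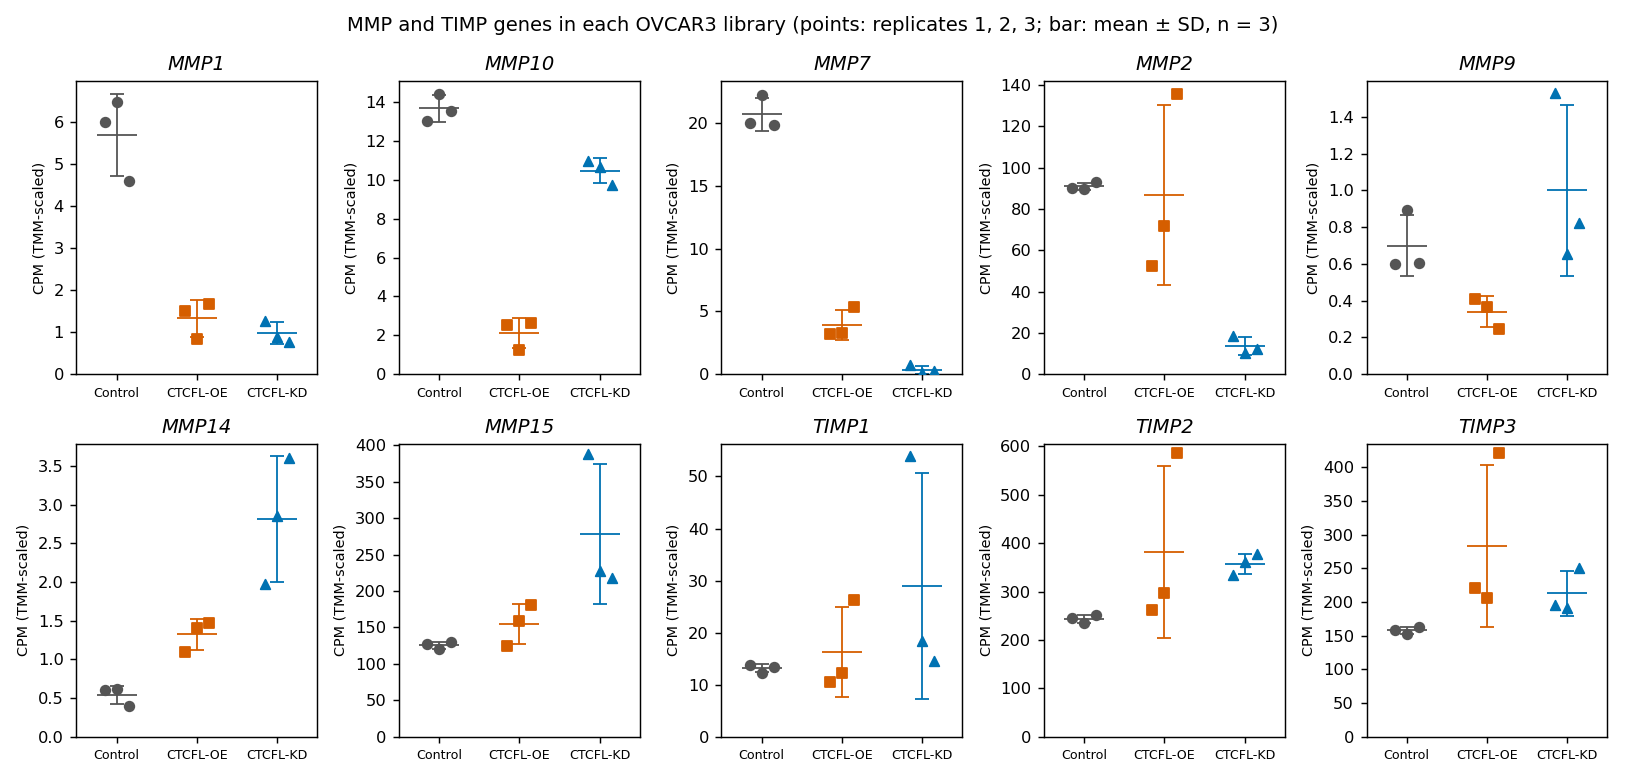
CPM (TMM-scaled, linear axes from 0) of the 10 MMP and TIMP genes in each library, with points for replicates 1, 2 and 3 and bars for the mean ± SD of each group. *MMP1*, *MMP7* and *MMP10* were low in all CTCFL-OE libraries, *MMP2* and *MMP7* were low in all CTCFL-KD libraries, and replicate 3 of CTCFL-OE lay above the other libraries of its group for *MMP2* and the 3 TIMPs.

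Which members responded to more and to less *CTCFL* was asked with 3 comparisons that share their libraries, so they are not independent of each other. A gene was called where its log2 fold change lay beyond 1 in either direction and its adjusted p was under 0.1 in CTCFL-OE against Control, or under 0.05 in the other comparisons. In CTCFL-OE, 4 of the 10 members were called, against 2.07% of all genes tested. Of these, 3 fell (0.702% of all genes) and 1 rose (1.37% of all genes). In CTCFL-KD, 5 members were called, against a background of 23.2%. Of these, 3 fell (7.94% of all genes) and 2 rose (15.3% of all genes). Between CTCFL-KD and CTCFL-OE, 5 were called, against 17.0% of all genes, with 3 higher in CTCFL-KD (10.6% of all genes) and 2 lower (6.42% of all genes). The libraries of a member did not overlap those of Control for 7 members in CTCFL-OE (37.1% of all genes) and for 9 in CTCFL-KD (56.3% of all genes), and those of CTCFL-KD and CTCFL-OE did not overlap for 6 (39.8% of all genes). The median log2 fold change of the 10 members was 0.11 for CTCFL-OE and 0.44 for CTCFL-KD, beside -0.01 and 0.08 over all genes tested. When 1 library was left out, the share of all genes called in CTCFL-OE ran from 0.240% (without replicate 3 of Control) to 6.45% (without replicate 1 of CTCFL-OE), and the members called from 3 to 5. It was between 0.240% and 0.332% without a Control library, 0.431% and 0.591% without replicate 2 or 3 of CTCFL-OE and 5.33% without replicate 1 of CTCFL-KD. Without replicate 3 of CTCFL-OE, 3 members were called in CTCFL-OE, and without replicate 1 of CTCFL-KD, 4 were called in CTCFL-KD.

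*MMP1*, the interstitial collagenase, which cuts fibrillar collagen, fell in both treated groups. It lies at chr11:102789401-102798160 on the minus strand, with coordinates of the members on GRCh38 throughout. Its counts were 120, 167 and 91 for Control, 33, 16 and 27 for CTCFL-OE and 14, 15 and 14 for CTCFL-KD. Every treated library lay below every Control library, and the treated groups overlapped each other. The mean level was 5.69 ± 0.975 CPM (SD, n = 3) for Control, 1.33 ± 0.437 for CTCFL-OE and 0.972 ± 0.258 for CTCFL-KD. The log2 fold change was -2.10 (SE 0.29, edgeR adjusted p = 0.0111) in CTCFL-OE and -2.58 (SE 0.31, edgeR adjusted p = 0.000155) in CTCFL-KD. The difference between the treated groups, -0.48 (SE 0.34), did not pass the test (edgeR adjusted p = 0.310). A share of 8.15% of its exon bases overlaps *WTAPP1* on the other strand, and the strand setting of the counting is not given in the sources used here.

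*MMP10*, a stromelysin that cuts proteoglycans and fibronectin and activates procollagenases, fell in CTCFL-OE. It lies at chr11:102770502-102780628 on the minus strand, beside *MMP1*. Its counts were 261, 372 and 268 for Control, 55, 24 and 43 for CTCFL-OE and 122, 180 and 178 for CTCFL-KD. The CTCFL-OE libraries, between 1.25 and 2.64 CPM, were below all others, and the CTCFL-KD libraries, between 9.73 and 10.99 CPM, lay just under Control, between 13.0 and 14.4 CPM. The log2 fold change was -2.68 (SE 0.25) in CTCFL-OE, the lowest adjusted p of the 10 members there (edgeR, 0.0017). In CTCFL-KD it was -0.39 (SE 0.23) and did not pass the test (edgeR adjusted p = 0.204). The difference between the treated groups was itself past the threshold, with *MMP10* higher in CTCFL-KD by 2.29 on the log2 scale (SE 0.25, edgeR adjusted p = 0.00013).

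*MMP7*, or matrilysin, a small secreted enzyme that epithelial cells make and that cuts a wide range of surface proteins, showed the largest change of the members in CTCFL-KD. It lies at chr11:102520508-102530750 on the minus strand. Counts were 401, 574 and 393 for Control, 71, 63 and 87 for CTCFL-OE and only 8, 1 and 4 for CTCFL-KD. The 3 groups did not overlap, with means of 20.7 ± 1.33, 3.95 ± 1.20 and 0.333 ± 0.345 CPM (SD, n = 3). It fell by 2.40 on the log2 scale in CTCFL-OE (SE 0.34, edgeR adjusted p = 0.0111) and by 6.13 in CTCFL-KD (SE 0.47, edgeR adjusted p = 9.23e-06). With so few counts in CTCFL-KD the size there is uncertain, and without replicate 1 of that group the log2 fold change was -7.12. *MMP7* was also lower in CTCFL-KD than in CTCFL-OE, by a log2 difference of -3.73 (SE 0.49, edgeR adjusted p = 0.000343), or -4.72 without that replicate.

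*MMP2*, a gelatinase that digests basement membrane collagen and was the most abundant secreted MMP in Control, fell in CTCFL-KD. It lies at chr16:55389700-55506691 on the plus strand. The counts were 1800, 2318 and 1838 for Control, 1154, 1377 and 2211 for CTCFL-OE and 204, 172 and 221 for CTCFL-KD. Control held 91.0 ± 1.72 CPM (SD, n = 3), CTCFL-KD 13.6 ± 4.28, and CTCFL-OE 86.7 ± 43.5, with replicate 3 at 136 CPM above all Control libraries and the other replicates at 52.5 and 71.8 CPM below them. The log2 fold change was -2.75 (SE 0.35, edgeR adjusted p = 0.000197) in CTCFL-KD and -0.07 (SE 0.32, edgeR adjusted p = 0.928) in CTCFL-OE. Without replicate 3 the latter was -0.56 (edgeR adjusted p = 0.494), and without replicate 1 it was 0.18, so that no direction was found for *MMP2* in CTCFL-OE. The difference of the treated groups was -2.68 (SE 0.35, edgeR adjusted p = 0.000316).

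*MMP9*, the other gelatinase, was near the limit of detection. It lies at chr20:46008908-46016561 on the plus strand. It had 12, 23 and 12 counts for Control, 9, 7 and 4 for CTCFL-OE and 17, 11 and 15 for CTCFL-KD. The CTCFL-OE libraries lay below Control and the CTCFL-KD libraries overlapped it. Neither the log2 fold change of -1.02 (SE 0.42) in CTCFL-OE nor that of 0.44 (SE 0.38) in CTCFL-KD passed the test (edgeR adjusted p = 0.244 and 0.383), although without replicate 1 of CTCFL-KD the fall in CTCFL-OE was called (log2 fold change -1.02, edgeR adjusted p = 0.0709). *MMP9* was higher in CTCFL-KD than in CTCFL-OE by 1.46 on the log2 scale (SE 0.43, edgeR adjusted p = 0.0276), a call that was lost without replicate 1 of CTCFL-KD (adjusted p = 0.0517), replicate 2 of CTCFL-OE (0.0745) or replicate 3 of CTCFL-OE (0.0818). An antisense gene, *SLC12A5-AS1*, overlaps 18.4% of its exon bases.

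*MMP14*, the membrane-type MMP known to activate proMMP2 in a complex with TIMP2, rose in both treated groups from a low level. It lies at chr14:22836560-22849041 on the plus strand. Its counts were 12, 16 and 8 for Control, 24, 27 and 24 for CTCFL-OE and 22, 48 and 66 for CTCFL-KD. The 3 groups did not overlap, at 0.542 ± 0.119, 1.33 ± 0.203 and 2.81 ± 0.814 CPM (SD, n = 3). In CTCFL-KD the log2 fold change was 2.37 (SE 0.31, edgeR adjusted p = 0.000266), and 2.55 without replicate 1. In CTCFL-OE it was 1.26 (SE 0.33) with an adjusted p of 0.0927 by edgeR, close to the threshold of 0.1. That call held in 2 of the 9 fits that left out a library, without replicate 1 of CTCFL-OE (edgeR adjusted p = 0.0495) or replicate 1 of CTCFL-KD (0.0205). It was lost in the other 7, where the adjusted p ran from 0.102 to 0.398, and held in 6 of 7 other settings. Between the treated groups the log2 difference was 1.11 (SE 0.29, edgeR adjusted p = 0.0164). This call was lost without replicate 1 of CTCFL-OE (adjusted p = 0.0505) or replicate 3 of CTCFL-KD (0.0655).

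*MMP15*, another membrane-type MMP and the most abundant MMP in every library, rose in CTCFL-KD. It lies at chr16:58025754-58046901 on the plus strand. The levels were 127, 119.9 and 129.6 CPM in Control, 125, 158 and 180.1 for CTCFL-OE and 389, 227 and 218 for CTCFL-KD. All CTCFL-KD libraries lay above all others, and CTCFL-OE overlapped Control. The log2 fold change was 1.15 (SE 0.25, edgeR adjusted p = 0.00442) in CTCFL-KD and 0.30 (SE 0.24, edgeR adjusted p = 0.544) in CTCFL-OE. Without replicate 1 of CTCFL-KD, its highest library, the value in CTCFL-KD was 0.83, which passed the adjusted p (edgeR, 0.00117) but not the threshold on the fold change. *MMP15* differed between the treated groups by 0.85 (SE 0.24, edgeR adjusted p = 0.0265), under the fold threshold.

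**Figure D2:**
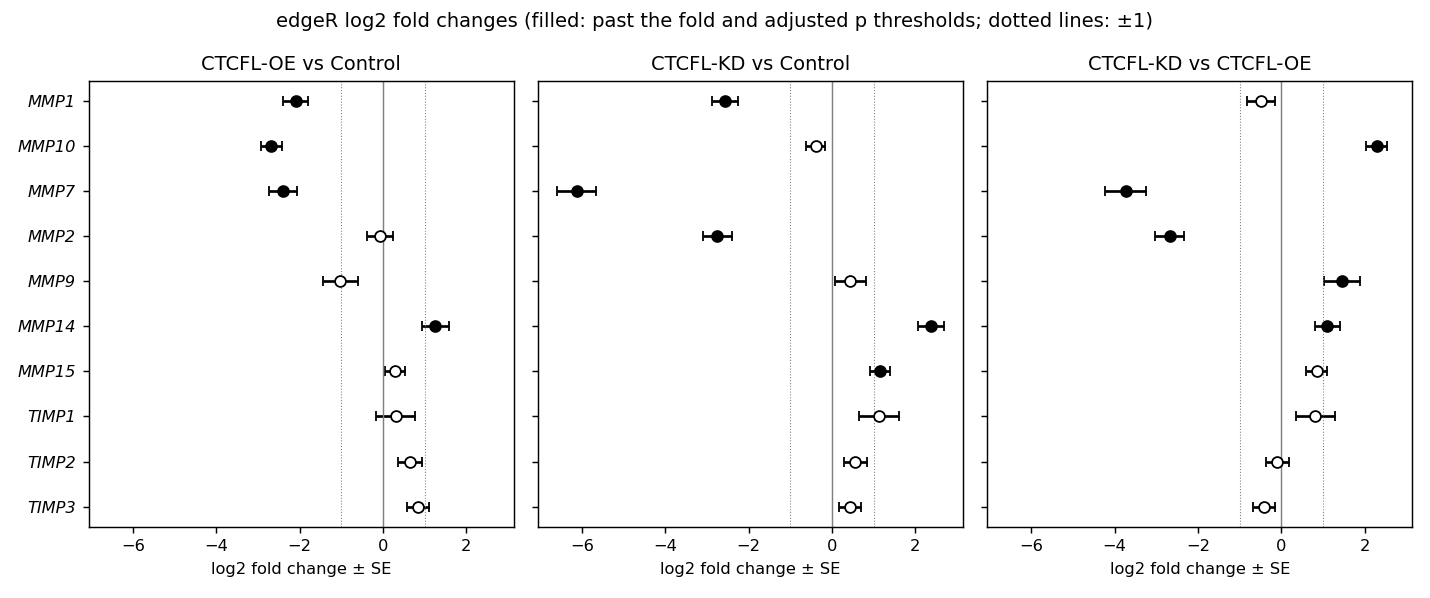
Log2 fold change ± SE (edgeR, 9 libraries) of each MMP and TIMP gene in the 3 comparisons, with filled points past the fold and adjusted p thresholds and dotted lines at a log2 fold change of 1 in each direction. Against Control, *MMP10* was called in CTCFL-OE, *MMP2* and *MMP15* in CTCFL-KD, and *MMP1*, *MMP7* and *MMP14* in both, and no TIMP passed both thresholds.

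Of the 3 inhibitors, edgeR and DESeq2 each called 0 in every comparison, while edgeR's unadjusted p was under 0.05 for 2 in CTCFL-OE, 1 in CTCFL-KD and 0 between the treated groups. *TIMP1*, a secreted inhibitor of most soluble MMPs, lies at chrX:47582408-47586789 on the plus strand, within *SYN1*, a gene on the other strand. It had 274, 318 and 267 counts for Control, 231, 234 and 428 for CTCFL-OE and 599, 309 and 266 for CTCFL-KD. Replicate 1 of CTCFL-KD stood at 54.0 CPM and its other replicates at 18.3 and 14.5, above Control between 12.3 and 13.7 CPM. The log2 fold change in CTCFL-KD was 1.13 (SE 0.47, edgeR adjusted p = 0.0827) and 0.32 without replicate 1, while without replicate 3 it was 1.44 and passed (edgeR adjusted p = 0.0294). In CTCFL-OE it was 0.30 (SE 0.47, edgeR adjusted p = 0.765), and -0.22 without replicate 3.

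*TIMP2*, which both inhibits MMP2 and takes part in its activation at the cell surface, was the most abundant inhibitor in Control. It lies at chr17:78852977-78925387 on the minus strand. Its libraries were at 245, 234 and 251 CPM in Control, 261, 297 and 587 for CTCFL-OE and 335, 361 and 377 for CTCFL-KD. None of the treated libraries reached down to the Control range. The change on the log2 scale was 0.65 (SE 0.28, edgeR adjusted p = 0.258) in CTCFL-OE and 0.55 (SE 0.28, edgeR adjusted p = 0.138) in CTCFL-KD, and without replicate 3 of CTCFL-OE the former was 0.19. *TIMP2* passed the adjusted p but not the fold threshold in CTCFL-OE without its replicate 1 (edgeR, 0.0841) and in CTCFL-KD without replicate 3 of CTCFL-OE (edgeR, 0.0225) or with edgeR on 2 groups (0.0194). *TIMP3*, which binds to the matrix and also inhibits some ADAM proteases, lies at chr22:32801705-32863041 on the plus strand within *SYN3*, a gene on the other strand. It stood at 159, 152 and 163 CPM in Control, 221, 207 and 422 for CTCFL-OE and 195, 192 and 251 for CTCFL-KD, again with every treated library above Control. Its log2 fold changes were 0.84 (SE 0.27, edgeR adjusted p = 0.150) in CTCFL-OE and 0.43 (SE 0.27, edgeR adjusted p = 0.223) in CTCFL-KD, and without replicate 3 of CTCFL-OE the first was 0.43. In CTCFL-OE *TIMP3* passed the adjusted p in 4 of 7 other settings, DESeq2 among them (0.0536), and in 2 of the 9 edgeR fits that left out a library, replicate 1 of CTCFL-OE (0.0704) or of CTCFL-KD (0.0460), but was called in 0 of these 6 fits, as the largest log2 fold change among them was 0.99.

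The make-up of MMP transcripts was described per length over 23 MMP genes. *MMP15* made up between 40.3% and 43.3% of summed MMP TPM in Control, 54.0% and 64.7% for CTCFL-OE and 78.1% and 81.8% for CTCFL-KD. The 5 secreted members together took between 53.6% and 56.4% for Control, 30.9% and 42.3% for CTCFL-OE and 10.3% and 13.4% for CTCFL-KD, so the groups did not overlap in either share. Summed MMP TPM was between 206 and 218 for Control, 140.5 and 176 for CTCFL-OE and 174 and 187 for CTCFL-KD. Summed TPM of the 4 TIMP genes was between 246 and 260 for Control, 270.5 and 457 for CTCFL-OE and 207 and 356 for CTCFL-KD. The MMP sum divided by the TIMP sum was between 0.831 and 0.885 for Control and between 0.386 and 0.570 in CTCFL-OE. In CTCFL-KD it was 0.605 and 0.526 in replicates 2 and 3 and 0.839, within the Control range, in replicate 1. These shares are descriptions of 3 libraries a group, with no test.

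**Figure D3:**
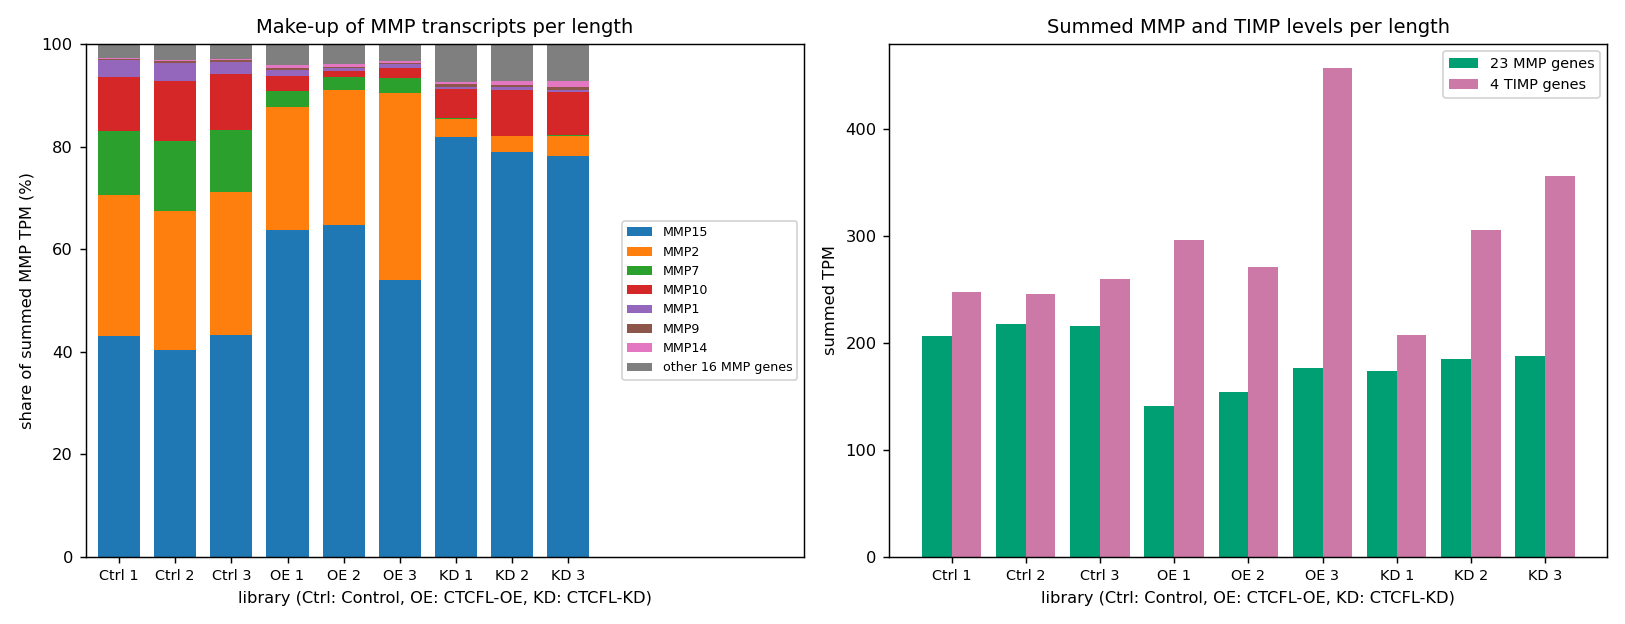
Left, the share of each MMP in the summed TPM of 23 MMP genes in each library (stacked bars, percent), and right, the summed TPM of the 23 MMP and 4 TIMP genes. The *MMP15* share was between 40.3% and 43.3% for Control and between 78.1% and 81.8% in CTCFL-KD, and the *MMP2* and *MMP7* shares were smallest in CTCFL-KD.

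*MMP7*, *MMP10* and *MMP1* belong to a group of 9 neighbouring MMP genes that spans 435 kb at chr11:102520508-102955732. The other 6 genes of the cluster had too few counts to pass edgeR's filter. *MMP13*, a collagenase, had 2, 9 and 4 counts for Control, 1, 1 and 2 for CTCFL-OE and 0 in each CTCFL-KD library, where a count of 0 still allows up to 3. DESeq2, run without that filter, called *MMP13* lower in CTCFL-KD (adjusted p = 0.0306). *MMP20* had 2 counts in each Control library and at most 1 in any treated one. *MMP3* and *MMP12* had at most 3 counts in any library, and *MMP8* and *MMP27* had 0 throughout. Beside the cluster, *TMEM123* had log2 fold changes of 0.10 (SE 0.31) in CTCFL-OE and 0.29 (SE 0.31) in CTCFL-KD, and *DCUN1D5* of -0.20 (SE 0.15) and -0.77 (SE 0.15), the latter past the adjusted p (edgeR, 0.00246) but not the fold threshold. Of the 5 nearest protein-coding neighbours on each side, which were chosen by position after the members' values were seen, 8 could be tested. Only *BIRC3*, an inhibitor of apoptosis, was called against Control, in CTCFL-KD (log2 fold change -2.41, SE 0.36, edgeR adjusted p = 0.00052), where 23.2% of all genes were called.

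**Figure D4:**
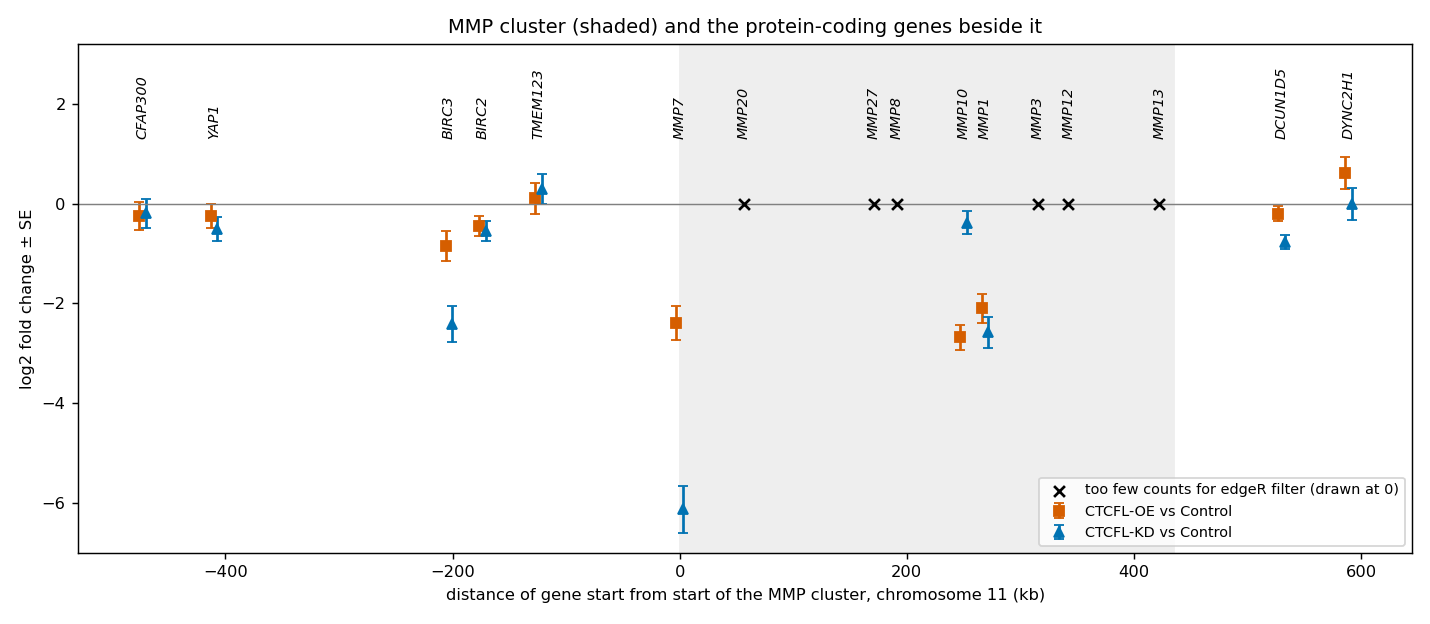
Log2 fold change ± SE in CTCFL-OE and CTCFL-KD against Control for genes of the chromosome 11 MMP cluster (shaded) and protein-coding neighbours, by distance of the gene's start from the cluster's start in kb, with crosses at 0 for genes with too few counts for edgeR's filter. *MMP7*, *MMP10* and *MMP1* lay between -2.10 and -2.68 in CTCFL-OE, while in CTCFL-KD *MMP7* was at -6.13 and *MMP10* at -0.39.

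The genes whose levels ran most like those of the cluster members over the 9 libraries were, by Pearson r of log2 CPM among 15365 genes, *NOL11* (0.98), *ANXA3* (0.97) and *TFE3* (0.97) for *MMP1*, *TUBA4A* (0.99) and *FTSJ1* (0.99) for *MMP7*, and *PRR16* (0.97), *PLEKHS1* (0.96) and *DLGAP4* (0.96) for *MMP10*. These are descriptions over libraries that share their groups. Their amplitudes differed, since *NOL11* went from 142 CPM in Control to 111 for CTCFL-OE and 106 for CTCFL-KD, whereas *TUBA4A* went from 466 to 194 and 47.9.

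Among 17 further MMP and TIMP genes, 6 passed edgeR's filter. In CTCFL-KD edgeR called 4 of these higher (15.3% of all genes) and 0 lower (7.94% of all genes), with 4 higher also without replicate 1. DESeq2 called 4 of 14 higher and 1 lower, which was *MMP13*. *MMP11*, a stromelysin, went from 4.26 ± 0.252 to 10.5 ± 1.98 CPM (SD, n = 3; log2 fold change 1.29, SE 0.22, edgeR adjusted p = 0.00116), *MMP17* from 0.669 ± 0.0533 to 2.38 ± 0.606 CPM (1.80, SE 0.29, edgeR adjusted p = 0.00079) and *MMP23B* from 0.626 ± 0.0720 to 5.89 ± 3.94 CPM (3.19, SE 0.47, edgeR adjusted p = 0.000501). Without replicate 1 the log2 fold change of *MMP23B* was 2.52. The remaining one, *MMP16*, named although under 1 CPM, had 2 counts in each Control library and 9, 11 and 16 in CTCFL-KD, a ratio of summed counts of 8.50 (exact binomial 95% interval 3.55 to 24.7, counting error only). In CTCFL-OE edgeR called 0 of the 6, of which 0 were under an unadjusted p of 0.05, and DESeq2 called 0 of 14.

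The plasminogen system feeds MMP activation, because plasmin cuts the proenzymes. In CTCFL-KD, against 7.94% of all genes, 2 of its 4 tested genes fell, also without replicate 1. They were *SERPINE2*, an inhibitor of plasminogen activators (log2 fold change -1.80, SE 0.38, edgeR adjusted p = 0.00417), and *PLAU*, the urokinase activator (-1.15, SE 0.22, edgeR adjusted p = 0.00212). The list's median log2 fold change was -0.91 in CTCFL-KD and -0.54 in CTCFL-OE. In CTCFL-OE edgeR called 0 of the 4, with 1 under an unadjusted p of 0.05, and DESeq2 called 0 of 7.

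Convertases and surface proteins that act on MMPs moved in both directions in CTCFL-KD. Of 10 tested genes, 3 were higher (15.3% of all genes) and 2 lower (7.94% of all genes). *LRP1*, an endocytic receptor that clears MMP and TIMP complexes, rose by 1.77 (SE 0.31, edgeR adjusted p = 0.00138) and *PCSK5*, a proprotein convertase, by 1.33 (SE 0.27, edgeR adjusted p = 0.00301) on the log2 scale. *BSG*, or basigin, an inducer of MMPs, rose by 1.40 (SE 0.35, edgeR adjusted p = 0.00943), but by 0.94 without replicate 1, which is under the fold threshold. *CD44*, the hyaluronan receptor, which can dock MMPs at the surface, went from 63.6 ± 1.43 to 8.73 ± 0.581 CPM (SD, n = 3; -2.87, SE 0.41, edgeR adjusted p = 0.000398), and *THBS1*, a matrix glycoprotein, had a log2 fold change of -2.62 (SE 0.50, edgeR adjusted p = 0.0024). In CTCFL-OE edgeR called 0 of the 10, with 3 under an unadjusted p of 0.05. DESeq2 called 1 of 12 there, *LRP1*, higher (log2 fold change 1.02, DESeq2 adjusted p = 0.0375). Without replicate 1 of CTCFL-KD, edgeR also called *LRP1* higher in CTCFL-OE (1.03, edgeR adjusted p = 0.0255).

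The ADAM and ADAMTS proteases share the zinc-binding catalytic fold, and TIMP3 inhibits some of them. In CTCFL-OE, against 1.37% of all genes, 2 of 11 rose, *ADAMTS9* by 1.16 (SE 0.25, edgeR adjusted p = 0.0573) and *ADAMTS15* by 1.02 (SE 0.16, edgeR adjusted p = 0.0164), and neither was called without replicate 3. In CTCFL-KD, 4 rose (15.3% of all genes) and 1 fell (7.94% of all genes). *ADAMTS15*, a proteoglycan-cutting enzyme, went from 40.7 ± 0.947 to 314 ± 33.3 CPM (SD, n = 3; log2 fold change 2.95, SE 0.17, edgeR adjusted p = 2.03e-06). *ADAM12* went from 48.9 ± 0.499 to 4.90 ± 1.44 CPM (-3.30, SE 0.24, edgeR adjusted p = 7.28e-06). *ADAMTS9* rose by 1.47, *ADAMTS1* by 1.37 and *ADAM15* by 1.09, the last by 0.87 without replicate 1, under the fold threshold.

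Of the matrix proteins that MMPs cut, 10 of 12 could be tested. *FN1*, fibronectin, fell in both treated groups, from 352 ± 39.6 CPM (SD, n = 3) in Control to 117 ± 59.6 in CTCFL-OE (log2 fold change -1.60, SE 0.39, edgeR adjusted p = 0.0795) and 94.1 ± 30.0 in CTCFL-KD (-1.90, SE 0.39, edgeR adjusted p = 0.00365), and the call in CTCFL-OE was lost without replicate 3. *FN1* was the 1 gene of this list that edgeR called in CTCFL-OE, while DESeq2 called 1 of 12 lower, *FN1*, and 1 higher, *SPP1* (adjusted p = 0.0438). In CTCFL-KD edgeR called 3 higher (15.3% of all genes) and 3 lower (7.94% of all genes), and DESeq2 4 higher and 3 lower. *TNC*, tenascin, rose by 2.00 (SE 0.26) and *COL4A2*, a basement membrane collagen, by 1.05 (SE 0.24), with edgeR adjusted p of 0.000228 and 0.00592. *COL1A2*, a chain of type I collagen, had 0 counts in all Control libraries and 156, 239 and 247 in CTCFL-KD, at least 99.8-fold higher than 3 counts per Control library. *SPP1*, or osteopontin, had a log2 fold change of -3.03 (SE 0.52) and *LAMB3*, a laminin chain, of -1.01 (SE 0.32), with edgeR adjusted p of 0.00131 and 0.0275. *COL1A2* is also among the 11 fibroblast markers, of which edgeR called 2 of 5 higher in CTCFL-KD and DESeq2 3 of 11, with 0 lower by either. The other marker called by edgeR was *POSTN*, periostin, with 2, 1 and 5 counts for Control and 9, 18 and 13 for CTCFL-KD (log2 fold change 2.74, SE 0.55, edgeR adjusted p = 0.00295). The further one called by DESeq2 was *COL3A1*, a chain of type III collagen, with 0 counts in each Control library and 8, 9 and 8 in CTCFL-KD (adjusted p = 0.000372). Most of the markers' summed level was *COL1A1*, and the 9 markers other than *COL1A1* and *COL1A2* summed to between 1.75 and 2.43 CPM for Control, 2.55 and 3.13 for CTCFL-OE and 3.38 and 3.78 for CTCFL-KD. Their part in the result for *COL1A2* was not tested.

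Transcription factors that act on MMP promoters are mainly of the AP-1 and ETS families. Of 17 tested, 8 fell in CTCFL-KD (7.94% of all genes), and 6 without replicate 1, while edgeR and DESeq2 each called 0 higher. *JUN*, an AP-1 subunit, passed the adjusted p in the upward direction but not the fold threshold, from 77.1 ± 3.95 to 136 ± 23.1 CPM (SD, n = 3; log2 fold change 0.82, SE 0.18, edgeR adjusted p = 0.00433). Every CTCFL-KD library lay above Control for *JUN* and for *ETS2* (0.30, SE 0.15, edgeR adjusted p = 0.139). Libraries of these groups did not overlap, in either direction, for 56.3% of all genes. *FOSL1*, an AP-1 subunit, went from 11.6 ± 1.64 CPM (SD, n = 3) for Control to 5.87 ± 2.35 for CTCFL-OE and 0.747 ± 0.214 for CTCFL-KD (log2 fold change in CTCFL-KD -3.99, SE 0.35, edgeR adjusted p = 2.08e-05). *ETS1* stood at 99.6 ± 2.61, 71.5 ± 5.49 and 14.3 ± 5.99 CPM in the same groups (in CTCFL-KD -2.79, SE 0.28, edgeR adjusted p = 4.67e-05). *ETV4*, of the ETS family, was the 1 regulator called in CTCFL-OE (-1.09, SE 0.23, edgeR adjusted p = 0.0547) and also fell in CTCFL-KD (-1.69, SE 0.24, edgeR adjusted p = 0.000388). *ELK3*, *JUNB* and *NFKB1* had log2 fold changes in CTCFL-KD of -1.59, -1.53 and -1.47. The calls lost without replicate 1 were those of *FOSL2* and *RUNX2*. The median log2 fold change of the list was -0.93 in CTCFL-KD and -0.48 in CTCFL-OE, beside 0.08 and -0.01 over all genes tested.

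**Figure D5:**
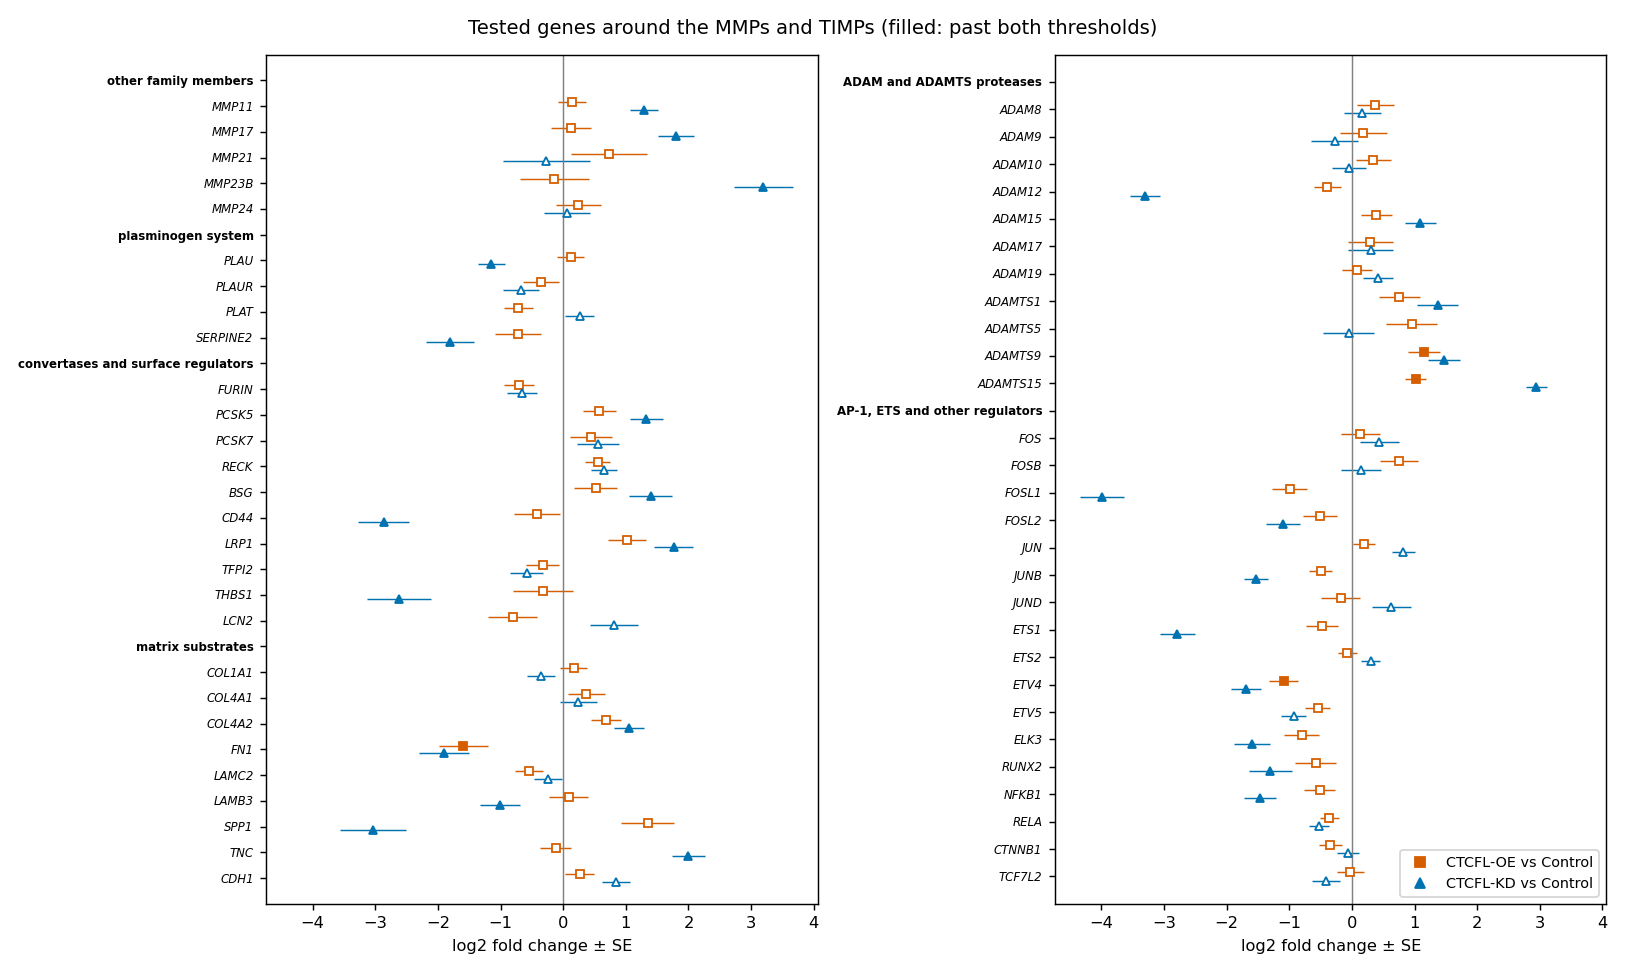
Log2 fold change ± SE (edgeR) in CTCFL-OE (squares) and CTCFL-KD (triangles) against Control for the tested genes of 6 lists around the MMPs and TIMPs, filled where past both thresholds. Genes with at most 3 counts in every Control library (*COL1A2* and *MMP16*) are left out, and *FOSL1*, *ADAM12* and *SPP1* lie below -3 in CTCFL-KD.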

How the data were processed

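RNA-seq gene counts of 9 OVCAR3 libraries were used. The authors prepared stranded mRNA libraries, sequenced them paired-end and used STAR on GRCh38 after trimming, then featureCounts for the gene totals, per the paper's methods, while GEO's processing notes list kallisto. They deposited whole-number counts, without normalization, and all 9 library files matched their column of the matrix. The annotation release, strand setting and treatment of multi-mapping reads are not given in the sources used here. GENCODE 44 named 60419 of 60660 identifiers, and 37834 had a count.

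The model was made in edgeR 4.0.16 under R 4.3.3 (filterByExpr, TMM, robust glmQLFit, condition only, all 9 libraries) with the quasi-likelihood test and Benjamini-Hochberg adjustment over 17794 genes. Thresholds on fold change and adjusted p were those of the paper's methods. The third comparison, of both treated groups, used 0.05. CPM are relative to TMM-scaled library sizes, and TPM use joined exon lengths of GENCODE 44. SE is the log2 fold change over the square root of F. Where every library of a group held 0 counts, the fold was computed against 3 counts per library, and with up to 3 counts a ratio of summed counts, scaled by library size, was given with its exact binomial 95% interval. These cover counting error only. The fit was tested on simulated data.

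DESeq2 1.42.0, other scalings, no filter, fits of 2 groups, replicate blocks and each library left out were the alternatives. Protein sequences were not used here. Same-numbered Control and CTCFL-KD libraries deviated together (correlations 0.252, 0.152 and 0.173 over 15365 genes), so the numbers were taken to pair them although the knockdown was a separate experiment. No library was a duplicate, as replicates differed by more than sampling noise. The mean chi-square per gene between replicates was 3.21 to 7.535 in Control, 25.1 to 104 in CTCFL-OE and 8.23 to 153 in CTCFL-KD. The model shared its estimate of the spread across these unequal groups. Genes named are all members, genes of the chromosome 11 cluster, and called genes of the lists, up to 6 per list and comparison by fold change with a group mean of 1 CPM or more. *MMP16*, *JUN*, *ETS2*, *CD14*, *CSF1R*, *KRT7*, *POSTN*, *COL3A1*, *SPP1* and *LRP1* in CTCFL-OE and the genes beside the cluster were chosen after their values were seen. The promoters printed were also chosen this way. The members and lists were chosen with earlier results of these data known, and 1 listed gene is not reported here. Python 3.11.15, pandas 2.3.3, numpy 2.4.6, scipy 1.17.1 and matplotlib 3.10.9 made tables and figures.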

Additional observations from a re-analysis of the deposited data

How the results depend on the processing

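Over the 10 members and 3 comparisons, 441 of 480 alternative values kept their direction and their side of the adjusted p threshold, 13 newly passed it, 21 no longer did and 5 changed sign. Those that changed sign were *MMP2* in CTCFL-OE without its replicate 1 (0.18) or 2 (0.04; range -0.56 to 0.18 over libraries left out), *TIMP1* in CTCFL-OE without its replicate 3 (-0.22; range to 0.54), and *TIMP2* between CTCFL-KD and CTCFL-OE with a replicate block on the 2 groups (0.0033) or without replicate 3 of CTCFL-OE (0.35; range from -0.31), where the cause was not tested. In CTCFL-KD against Control the replicate block, which treats same-numbered libraries as pairs, changed no member's call. It gave 4027 called genes in place of 4132 on all 9 libraries and 3758 in place of 3813 on 2 groups. In CTCFL-OE against Control the block gave 817 called genes in place of 835 on 2 groups and 302 in place of 368 on all 9 libraries, where *MMP14* was no longer called (edgeR adjusted p = 0.123). Same-numbered libraries of that comparison correlated by -0.033, 0.188 and -0.047, without a common sign, so no pairing by number was taken.

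The count of all genes called in CTCFL-OE was 835 with edgeR on 2 groups and 826 with no filter on low counts, against 368, and ran from 44 to 1184 when 1 library was left out. Leaving out replicate 1 of CTCFL-OE gave 1184, replicate 1 of CTCFL-KD 980 and each Control library between 44 and 61. The members called in CTCFL-OE stayed between 3 and 5 over these fits, the 5 including *MMP9* without replicate 1 of CTCFL-KD, and *MMP1*, *MMP7* and *MMP10* were called in all 6 that left out a Control or CTCFL-OE library. Between CTCFL-KD and CTCFL-OE, 3 members were called with edgeR on 2 groups, with or without the block, where *MMP9* and *MMP14* were lost. All genes called there were 2332 on 2 groups and 1923 with the block added, and 3032 on all 9 libraries and 2963 with the block, which kept 5 members. With no filter, *TIMP1* was called in CTCFL-KD (log2 fold change 1.02). The Control TPM of *MMP7* was 37.6 and of *TIMP2* 160 when the longest transcript was taken as the length. *MMP9*, *MMP14* and *MMP7* in CTCFL-KD rest on few counts, which limits the precision of their fold changes.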
